A study of Saccharomyces cerevisiae with 50 samples.

Results

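The genes described here encode the yeast proteasome, its assembly and partner factors, its transcription factor Rpn4, and the ATPase Cdc48 with its cofactors. They were taken by gene symbol from the 2 deposited tables, one of ribosome footprints and one of mRNA, and all 40 symbols were found among 6679 open reading frames. Of the 40, 14 encode the core particle, 18 the regulatory particle, 1 the transcription factor, 3 assembly factors or activators, and 4 Cdc48 and its cofactors. All 40 passed the minimum mean level of 10 RPKM (reads scaled to the coding length and to the library total) in both assays.

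The 50 libraries came from 25 samples of Saccharomyces cerevisiae of the SK1 background, each with 1 footprint and 1 mRNA library. The study sequenced strains deleted for ribosomal protein genes to find expression changes tied to the total level of translation. All cells were grown with shaking in YEPD with 2% glucose at 30 °C and harvested in exponential growth at an OD600 of 0.6. The 9 RPS strains carried deletions of genes of the small ribosomal subunit: rps0b, rps22a (4662v), rps22a (4659), rps25b, rps28a, rps28b, rps29b, rps25a rps25b and rps22a/+ rps22b/+. The 14 RPL strains carried deletions of genes of the large subunit: rpl7a, rpl24a, rpl24b, rpl26a, rpl26b, rpl38, rpl40a, rpl40b, rpl41a, rpl41b, rpl26a rpl26b, rpl7a/+ rpl7b/+, rpl26a/+ rpl26b/+ and rpl40a/+ rpl40b/+. The numbers in brackets are strain numbers, given where a genotype occurs more than once. A slash and plus marks a heterozygous deletion. The 2 wild-type samples shared a strain number, and the labels do not say whether they were separate cultures. Every genotype was thus 1 sample per assay, except rps22a and the wild type, so the tests measure the spread between strains of a class. Several strains share a deleted gene and were treated as independent. Levels are relative to the reads of a library, so less RNA of a gene per cell and more RNA of other genes cannot be told apart.

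The proteasome degrades proteins that carry ubiquitin chains. Its core particle is a barrel of stacked alpha and beta rings with the proteolytic sites inside, and its regulatory particle, made of a base and a lid, binds, unfolds and feeds in substrates. In budding yeast most proteasome genes carry a shared promoter element bound by Rpn4, a short-lived activator that the proteasome itself degrades, so that loss of proteasome activity raises the transcription of its own subunits.

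Recovered library totals ranged from 0.962 to 3.51 M reads (M, mega) for mRNA and from 4.10 to 8.57 M reads for footprints. RPS mRNA libraries were shallower, with a median of 1.24 M reads, against 2.00 M reads in RPL strains. The targeted gene checked the labels. Of 38 values of homozygously deleted genes, 36 lay below the range of the strains of other families, at no more than 3.05% of their median. The other 2 belonged to the library pair labelled rps22a (4662v). Of 16 values in heterozygotes, 9 lay below that range. In 3 strains a targeted gene stood near the median of the other strains, namely RPS22A in rps22a (4662v), at 93.4% in mRNA and 111% in footprints, RPL40A mRNA in rpl40a/+ rpl40b/+, at 96.4%, and RPL26A and RPL26B footprints in rpl26a/+ rpl26b/+, at 99.9% and 101%. These 3 strains are taken as going against their labels, meaning that a targeted gene stood near that median in at least 1 assay. Other values of the heterozygotes among them lay below the range, as their labels say. In rpl40a/+ rpl40b/+ those were RPL40B mRNA (55.3% of that median), RPL40B footprints (45.35%) and RPL40A footprints (79.3%). For rpl26a/+ rpl26b/+ the mRNA of both targeted genes was below the range, RPL26A with 53.1% and RPL26B with 51.2%. In 2 more heterozygotes one of the targeted genes lay above that median in both assays, RPL7B in rpl7a/+ rpl7b/+ at 423% in mRNA and 394% in footprints, and RPS22B in rps22a/+ rps22b/+ at 214% and 257.5%. Leaving out all 5 strains was added after the data were seen.

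In wild type the proteasome subunits were well above most genes per length. Core particle genes had a median of 216 RPKM in mRNA and 274 RPKM in footprints, and regulatory particle genes 176 RPKM and 188 RPKM. The median over all genes tested was 53.5 RPKM in mRNA and 51.6 RPKM in footprints. Within the core particle the mRNA levels lay close together, from 173 RPKM for PRE1, a beta subunit, to 251 RPKM for SCL1, an alpha subunit. Core footprints ran from 185 RPKM for PRE1 to 354 RPKM for PRE7, also a beta subunit. The regulatory particle spread more widely in footprints, with a coefficient of variation across its genes of 39.1%, against 20.7% across core genes.

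The widest gaps in the regulatory particle lay in the base. RPN13, a ubiquitin receptor, had 402 RPKM of footprints, and RPT2, one of the ATPases of the base ring, had 93.3 RPKM. The scaffold subunits RPN1 and RPN2, the longest coding sequences of the 32 subunits at 2982 nt and 2838 nt, had 109 and 136 RPKM of footprints. Their mRNA stood at 192 and 226 RPKM, and RPN2 mRNA was the highest of the regulatory particle. The lowest mRNA level of a subunit was that of RPT5, another ATPase, at 122 RPKM. In the lid, mRNA ranged from 136 RPKM for RPN7 to 208 RPKM for RPN5, both structural subunits, and footprints from 119 RPKM for RPN7 to 277 RPKM for RPN6.

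The genes outside the particle spanned a far wider range. UMP1, the chaperone that is consumed as the core particle matures, had 263 RPKM of mRNA and 497 RPKM of footprints, the highest footprint level of the 40 genes. ECM29, which binds core and regulatory particle together, had 53.0 and 22.8 RPKM, and BLM10, an alternative activator of the core, had 73.4 and 14.4 RPKM. CDC48, the ATPase that pulls ubiquitylated proteins out of complexes and membranes, had 448 RPKM of mRNA and 411 RPKM of footprints. Its substrate-recruiting cofactors were lower: NPL4 had 51.7 and 44.8 RPKM and UFD1 had 59.6 and 58.0 RPKM, while SHP1, another cofactor, had 117 and 211 RPKM. RPN4 mRNA stood at 66.3 and 70.5 RPKM in the 2 wild-type libraries, and RPN4 footprints at 21.8 and 37.9 RPKM.

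**Figure D1:**
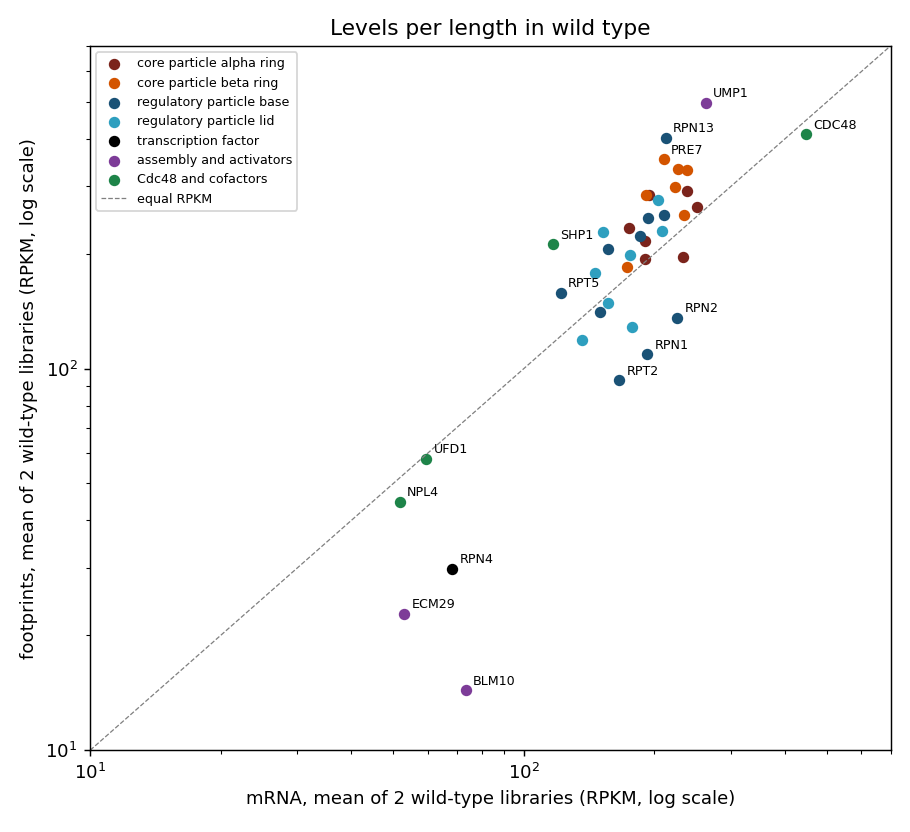
mRNA (horizontal) and footprint (vertical) levels of the 40 genes per length in wild type, each point the mean of 2 libraries on log axes in RPKM, coloured by role, with the dashed line at equal values. Core genes lie between 173 and 251 RPKM of mRNA, while RPT2, RPN1, RPN2, RPN4, ECM29 and BLM10 lie below the line.

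The log2 difference between footprints and mRNA of a sample, called translational efficiency here, had a median of 0.17 over the 40 genes in wild type, against -0.24 over all genes, and 32 of the 40 lay above that all-gene median. RPN13 (0.92), UMP1 (0.92), SHP1 (0.85) and PRE7 (0.75) had the highest values. BLM10 (-2.28), RPN4 (-1.22), ECM29 (-1.18), RPT2 (-0.83), RPN1 (-0.81) and RPN2 (-0.73) had the lowest. The RPN4 value is the mean of 2 unlike libraries, at -1.56 and -0.88, so its place against ECM29 (-1.20 and -1.16) is uncertain. BLM10, at 6432 nt, and ECM29, at 5607 nt, are the longest coding sequences of the 40, and RPN13 and UMP1, at 471 nt and 447 nt, the shortest. The part of length in these values was not tested.

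The first comparison sets the RPS strains against the RPL strains. In mRNA, 4 of the 40 genes fell in RPS strains and none rose, by limma with Benjamini-Hochberg adjustment over all 5103 genes tested. Over all genes, 6.74% were called lower, and 9.66% in either direction. The count of 4 of 40 is near the share of all genes called lower. The 4 were PRE5, PRE7, RPT2 and RPN9, 1 each from the alpha ring, the beta ring, the base and the lid. Of the 40 log2 fold changes, 38 were below 0, with a median of -0.18, against a median of -0.02 over all genes. The 2 above 0 were RPN8 (0.08) and BLM10 (0.07). For every one of the 40 genes the RPS and RPL ranges overlapped. The share of all genes with overlapping ranges is not given here. Under median-of-ratios, TMM (trimmed mean of M values) and quantile scaling the median stayed below 0, between -0.13 and -0.16. The count of 4 became 2 without the 3 strains that went against their labels, 1 (PRE5) without the 5 strains with a targeted gene not below the range, 1 without rps0b or rps22a (4662v), 2 without rpl40a, rpl24a, rps22a/+ rps22b/+ or rps29b, and 9 without rpl41a or rpl41b. With 1 mean value per family of deleted genes it was 0. The shares of all genes called in the fits with strains left out or averaged are not given here.

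In footprints none of the 40 genes passed the test, against 5.61% of all genes in either direction. An unadjusted p under 0.05 was reached by 10 of the 40. That threshold is looser than the one behind the 5.61%, and the share of all genes at it is not given here. Voom, limma's test on the recovered reads, also called none. With all strains 4.41% of all genes were called lower, and the shares in the fits with strains left out are not given here. The count of members called lower was 2 without the 3 strains that went against their labels, 1 without the 5, 3 without rpl41a or rpl26a/+ rpl26b/+, and 1 without rpl41b. The direction was like that of mRNA, with 36 of 40 fold changes below 0 and a median of -0.15, against -0.04 over all genes. UMP1 had the lowest value, at -0.37 ± 0.13 (SE), with an adjusted p of 0.091. The 4 genes above 0 in footprints were PUP2 (0.14), PRE5 (0.12), RPT5 (0.09) and PUP1 (0.05).

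**Figure D2:**
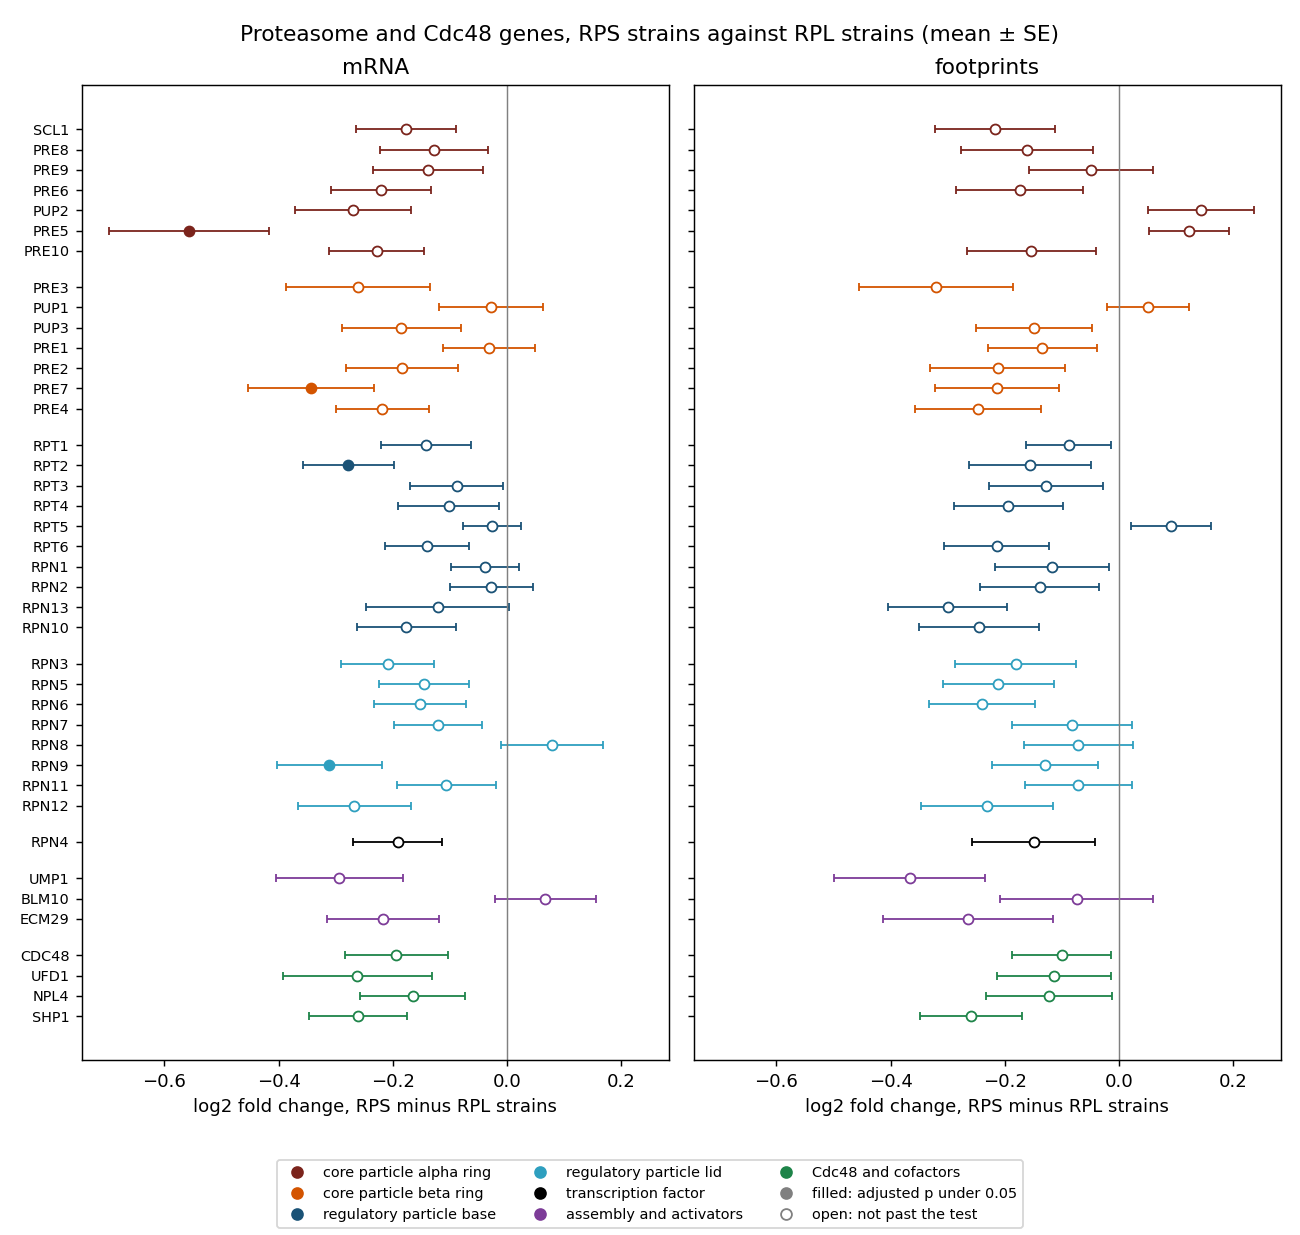
Log2 fold change of RPS strains (n = 9) over RPL strains (n = 14) for the 40 genes in mRNA and footprints, with standard errors, ordered and coloured by role; filled circles passed the test. PRE5 lies farthest left in mRNA at -0.56 and right of 0 in footprints at 0.12.

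In the alpha ring, which forms the outer gate of the core particle, PRE5 stood apart from its neighbours. PRE5 (YMR314W, chromosome XIII) had an mRNA level of 147 RPKM at the lowest, 171 at the median and 182 at the highest in RPS strains. In RPL strains its mRNA was 154 at the lowest, 258 at the median and 383 RPKM at the highest, and in wild type 194 and 186 RPKM. All 9 RPS strains lay below the RPL median, but 3 RPL strains lay within the RPS range. PRE5 mRNA was highest in rpl7a (383 RPKM), rpl24a (354), rpl40b (340), rpl40a (338), rpl24b (292), rpl26a rpl26b (283) and rpl26b (275), and lowest among RPL strains in rpl41b (154), rpl40a/+ rpl40b/+ (169) and rpl41a (170.5). The fold change was -0.56 ± 0.14 (SE), with an adjusted p of 0.013. PRE5 also varied most over the 25 strains, with a coefficient of variation of 32.9% in mRNA, while its footprints varied by 11.4%.

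The footprints of PRE5 did not follow its mRNA. They were 209, 226 and 270.0 RPKM (lowest, median, highest) in RPS strains, 175.5, 219 and 266 RPKM in RPL strains, and 238 and 193.5 RPKM in wild type. Of the 14 RPL strains, 8 lay in the RPS range, and the fold change of 0.12 ± 0.07 had an adjusted p of 0.30. In rpl40b, for example, PRE5 mRNA was 340 RPKM and its footprints 198 RPKM, while in rps22a (4659) its mRNA was 168 RPKM and its footprints 270.0 RPKM.

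The efficiency of PRE5 was accordingly higher in RPS strains. It was 0.20, 0.51 and 0.72 (lowest, median, highest) in RPS strains, -0.77, -0.19 and 0.37 in RPL strains, and 0.29 and 0.06 in wild type. All 9 RPS strains lay above the RPL median, and 4 RPL strains fell in the RPS range. The difference was 0.68 ± 0.13 (SE), with an adjusted p of 0.017, among 1.12% of genes called in either direction and 1% called higher. PRE5 kept its calls in mRNA and in efficiency in each of the 25 fits that left out 1 strain. They were lost with 1 mean value per family of deleted genes, at an adjusted p of 0.085 in mRNA and 0.091 in efficiency, and the efficiency call also without pairing the assays by strain, at an adjusted p of 0.068.

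The gene next to PRE5, YMR315W, was looked up after these values were seen. YMR315W mRNA was also lower in RPS strains, at 48.3, 71.5 and 117 RPKM (lowest, median, highest), against 77.5, 111 and 172.5 RPKM in RPL strains and 90.1 and 122.5 RPKM in wild type. Its fold change was -0.61 ± 0.14, with an adjusted p of 0.0089, and over the 25 strains its log2 mRNA level went with that of PRE5 at a Pearson correlation of 0.78, the values of both genes coming from the same libraries. Unlike those of PRE5, YMR315W footprints fell in RPS strains too, by 0.56 ± 0.15 on the log2 scale with an adjusted p of 0.032, and they correlated with PRE5 footprints at -0.21. The gene on the other side, TGL3, had an mRNA fold change of -0.15 with an adjusted p of 0.27. Whether transcripts of YMR315W contribute reads to PRE5 was not tested, since the files give 1 value per gene.

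PUP2 (YGR253C, chromosome VII), another alpha subunit, showed a smaller pattern of the same shape. PUP2 mRNA was 158, 175 and 207.5 RPKM in RPS strains, 151.5, 217 and 284 RPKM in RPL strains, and 192 and 188 RPKM in wild type. Its footprints were 167, 221 and 271 RPKM in RPS strains, 144.5, 199.7 and 248 RPKM in RPL strains, and 196 and 189.8 RPKM in wild type. All 9 RPS strains lay below the RPL median in mRNA, and 7 lay above it in footprints. Neither difference passed the test, with an mRNA fold change of -0.27 ± 0.10 (adjusted p = 0.090) and a footprint fold change of 0.14 ± 0.09 (adjusted p = 0.36). The efficiency of PUP2 rose in RPS strains, by 0.41 ± 0.105 (SE) with an adjusted p of 0.046. It was -0.15, 0.33 and 0.63 in RPS strains, -0.47, -0.18 and 0.61 in RPL strains, and 0.03 and 0.01 in wild type. The RPL value of 0.61 came from rpl26a/+ rpl26b/+, whose footprint library went against its label, and the next highest RPL value was 0.09. This call was near the threshold and held in 5 of the 25 fits that left out 1 strain, with adjusted p between 0.0066 and 0.11. It was lost under median-of-ratios and TMM scaling, and without the pairing by strain at an adjusted p of 0.35. The genes beside PUP2 were GCN5, with an mRNA fold change of -0.08, and ENO1, with one of -0.20, and neither passed the test.

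**Figure D3:**
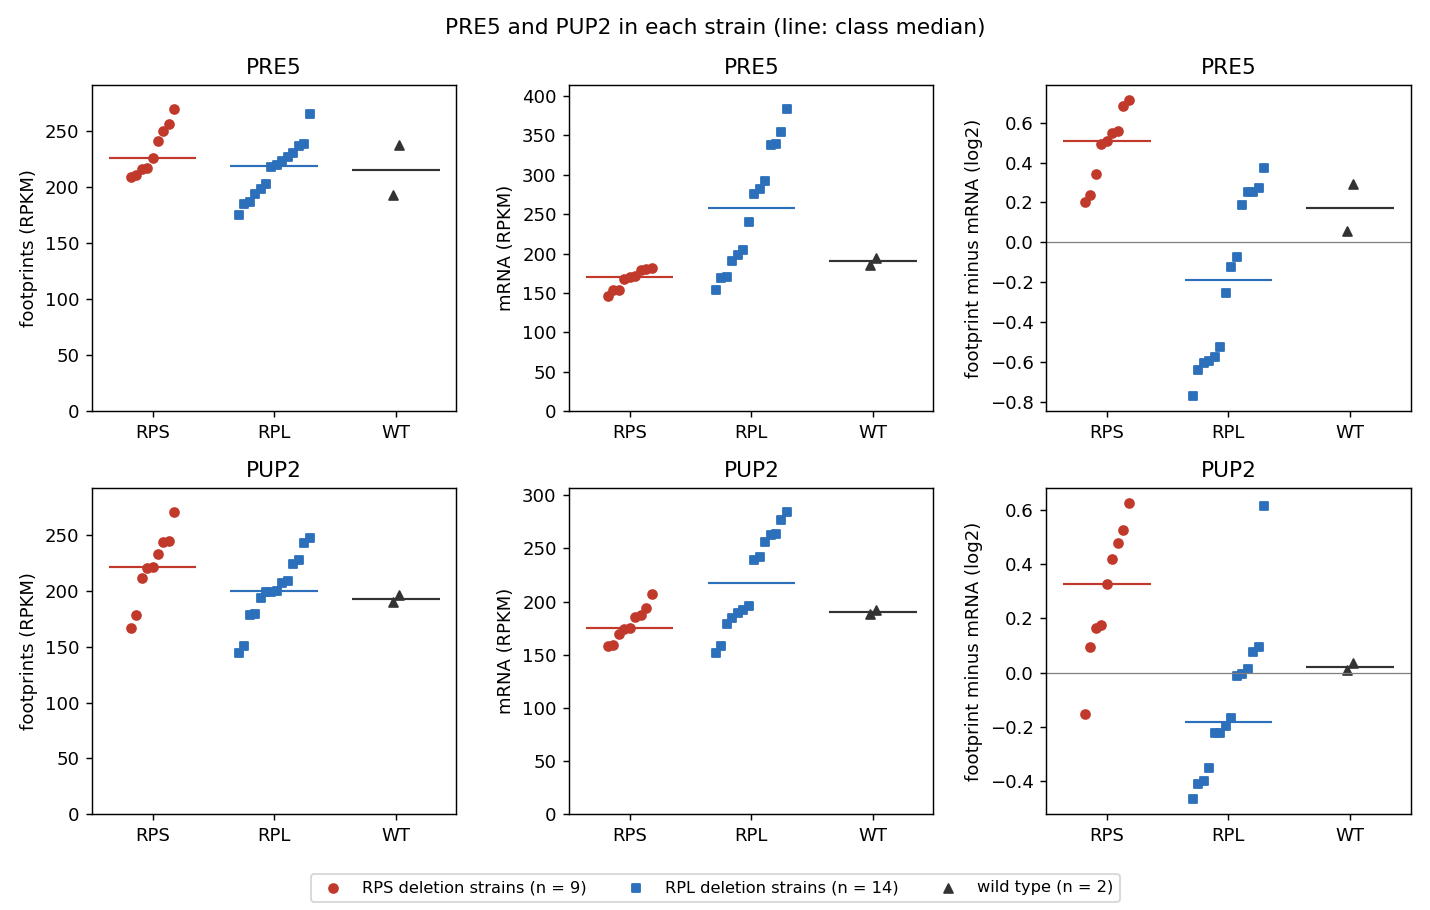
PRE5 (top) and PUP2 (bottom) in each strain, with footprints in RPKM, mRNA in RPKM and the log2 footprint minus mRNA difference; each point is 1 strain and each line a class median. PRE5 mRNA spreads from 154 to 383 RPKM in RPL strains while its footprints stay between 175.5 and 266 RPKM.

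The other alpha subunits differed less. SCL1, PRE8, PRE9, PRE6 and PRE10 had mRNA fold changes between -0.13 (PRE8) and -0.23 (PRE10) and footprint fold changes between -0.05 (PRE9) and -0.22 (SCL1), and none passed the test. PRE8 footprints ranged from 208 to 439.5 RPKM over the 25 strains and PRE9 footprints from 141 to 288 RPKM, and rpl7a was the highest for both.

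In the beta ring, which holds the proteolytic sites, PRE7 fell in RPS strains. PRE7 (YBL041W, chromosome II), a non-catalytic beta subunit, had 154.5, 189.6 and 244 RPKM of mRNA (lowest, median, highest) in RPS strains, 157, 248 and 319.9 RPKM in RPL strains, and 213 and 207.5 RPKM in wild type. All 9 RPS strains lay below the RPL median, and 6 RPL strains lay in the RPS range. The fold change was -0.34 ± 0.11, with an adjusted p of 0.049, just past the threshold, and 5 of 25 fits that left out 1 strain kept the call, with adjusted p between 0.013 and 0.082. Without the 3 strains that went against their labels the adjusted p of PRE7 was 0.077, and without the 5 it was 0.14. PRE7 footprints were 290.3, 339 and 409 RPKM in RPS strains, 280.4, 385 and 564 RPKM in RPL strains, and 349 and 358 RPKM in wild type, with a fold change of -0.21 ± 0.11 and an adjusted p of 0.23. The highest PRE7 value in both assays was that of rpl7a.

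The 3 catalytic subunits had no call. PRE3, of the caspase-like site, had an mRNA fold change of -0.26 and a footprint fold change of -0.32, PRE2, of the chymotrypsin-like site, -0.18 and -0.21, and PUP1, of the trypsin-like site, -0.03 and 0.05. PUP1 footprints varied least of the core genes, with a coefficient of variation of 11.3%, from 246 to 391 RPKM over the 25 strains, while PRE3 footprints ran from 225.5 to 564 RPKM. The remaining beta subunits PUP3, PRE1 and PRE4 had mRNA fold changes of -0.19, -0.03 and -0.22.

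In the base of the regulatory particle, RPT2 fell in RPS strains. RPT2 (YDL007W, chromosome IV), whose protein takes part in opening the core gate, had 116, 135 and 170.2 RPKM of mRNA in RPS strains, 135, 169 and 196 RPKM in RPL strains, and 159 and 172 RPKM in wild type. Of the 9 RPS strains, 8 lay below the RPL median, and the other, rps28b, lay at 170.2 RPKM. The fold change was -0.28 ± 0.08, with an adjusted p of 0.027, and 22 of 25 fits that left out 1 strain kept the call. It was lost without rps22a (4662v), rps28a or rps0b, at adjusted p of 0.054, 0.051 and 0.0505, and without the 3 strains that went against their labels, at 0.056, or the 5, at 0.092. RPT2 footprints were 87.0, 108 and 125 RPKM in RPS strains, 76.6, 119 and 151 RPKM in RPL strains, and 85.4 and 101 RPKM in wild type, with a fold change of -0.16 ± 0.11 and an adjusted p of 0.40.

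None of the other ATPases passed the test in any of the 3 measures. Their mRNA fold changes were -0.14 for RPT1, -0.09 for RPT3, -0.10 for RPT4, -0.03 for RPT5 and -0.14 for RPT6. RPT5 mRNA was the steadiest of the 40 genes over the 25 strains, from 116 to 158 RPKM, a coefficient of variation of 8.03%. The scaffolds RPN1 and RPN2 had mRNA fold changes of -0.04 and -0.03 and footprint fold changes of -0.12 and -0.14. The ubiquitin receptors RPN10 and RPN13 had footprint fold changes of -0.25 and -0.30, and RPN13, with an adjusted p of 0.079, came nearest to the threshold in the base.

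In the lid, RPN9 fell in RPS strains. RPN9 (YDR427W, chromosome IV), a structural subunit, had 108.0, 123 and 167 RPKM of mRNA in RPS strains, 117, 158 and 205 RPKM in RPL strains, and 142 and 171 RPKM in wild type. Of the 9 RPS strains, 8 lay below the RPL median and the other, rps22a (4659), was the highest at 167 RPKM. The fold change was -0.31 ± 0.09, with an adjusted p of 0.032, and 19 of 25 fits that left out 1 strain kept the call. It was lost without rpl40a, rpl24a, rps22a (4662v), rps22a/+ rps22b/+, rps29b or rps0b, at adjusted p between 0.0505 and 0.069, and without the 5 strains, at 0.091. RPN9 footprints were 115, 154 and 181 RPKM in RPS strains, 118, 168.5 and 197 RPKM in RPL strains, and 151 and 146 RPKM in wild type, with a fold change of -0.13 ± 0.09 and an adjusted p of 0.41. The gene after RPN9, YDR428C, moved the other way in mRNA, with a fold change of 0.30 and an adjusted p of 0.038.

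The deubiquitylase RPN11, which removes ubiquitin chains before degradation, and its partner RPN8 had mRNA fold changes of -0.11 and 0.08 and footprint fold changes of -0.07 each. RPN12, RPN3, RPN6, RPN5 and RPN7, the structural subunits left, had mRNA fold changes from -0.27 (RPN12) to -0.12 (RPN7) and did not pass the test.

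Outside the particle, UMP1 had an mRNA fold change of -0.29 ± 0.11 (adjusted p = 0.091), ECM29 one of -0.22 and BLM10 one of 0.07. All 4 genes of the Cdc48 group had fold changes below 0 in both assays, and none passed. SHP1 came nearest, with -0.26 ± 0.09 in mRNA (adjusted p = 0.054) and -0.26 ± 0.09 in footprints (adjusted p = 0.076). CDC48 had -0.19 and -0.10, UFD1 -0.26 and -0.11, and NPL4 -0.17 and -0.12. In efficiency the 4 had differences between 0.00 (SHP1) and 0.15 (UFD1).

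RPN4 itself did not pass the test between the classes. RPN4 mRNA was 53.5, 71.2 and 82.4 RPKM (lowest, median, highest) in RPS strains, 63.9, 81.4 and 92.2 RPKM in RPL strains, and 66.3 and 70.5 RPKM in wild type. The lowest RPS value came from rps25b and the lowest RPL value from rpl41a. The fold change was -0.19 ± 0.08, with an adjusted p of 0.11. RPN4 footprints were 27.1, 34.2 and 42.6 RPKM in RPS strains, 28.6, 39.4 and 48.0 RPKM in RPL strains, and 21.8 and 37.9 RPKM in wild type, with a fold change of -0.15 ± 0.11 and an adjusted p of 0.42. Its efficiency differed by 0.04. RPN4 was covered by 100 to 444 mRNA reads and by 177 to 519 footprint reads per library.

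Against wild type, no gene of the 40 passed the test in any of the 3 measures, in RPS or in RPL strains, and none of all genes tested did either. The 2 wild-type samples leave these contrasts with little precision. With RPS strains, 1, 1 and 3 of the 40 had an unadjusted p under 0.05 in mRNA, footprints and efficiency, and with RPL strains 1, 0 and 1. The share of all genes at that unadjusted p is not given here, so these counts are not read as a difference. Median mRNA fold changes over the 40 genes were -0.12 in RPS strains and 0.07 in RPL strains, against all-gene medians of -0.02 and 0.00. Median footprint fold changes were -0.05 in RPS strains and 0.12 in RPL strains, against 0.01 and 0.04 over all genes. Voom, run for mRNA and footprints, also called none. Both contrasts share the 2 wild-type samples. For PRE5 the mRNA fold change was -0.19 in RPS strains and 0.37 in RPL strains relative to the same wild-type libraries.

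Strain by strain, most subunits were high or low together. The share of mRNA reads on the 32 subunits was lowest in rps25b at 0.516% and highest in rps28b at 0.674% among RPS strains. In RPL strains it ran from 0.524% in rpl41b to 0.818% in rpl7a, and the wild-type libraries had 0.619% and 0.625%. In footprints the share ran from 0.542% in rps25b to 0.727% in rps22a/+ rps22b/+ among RPS strains, and from 0.519% in rpl41a to 0.954% in rpl7a among RPL strains, with 0.657% and 0.660% in wild type. The RPL class thus held both the lowest footprint share and the highest share in both assays, and the RPS strains lay inside its footprint range. Of the 39 genes other than RPN4, 27 had their highest mRNA level and 30 their highest footprint level in rpl7a. The lowest mRNA level of a gene was most often that of rps25b (13 genes) or rpl41a (11 genes), and the lowest footprint level that of rpl41a (20 genes).

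Relative to the median of the 25 strains, all 32 subunits lay above that median in mRNA in rpl7a, rpl40a, rpl40b and rpl26a rpl26b, and none did in rpl41a, rpl41b, rps25b and rps22a (4662v). The median over all genes deviated the same way in some of these strains: it was -0.11 in mRNA and -0.15 in footprints in rpl41a, -0.05 and -0.08 in rpl41b, -0.07 and -0.10 in rps25b, -0.01 and -0.07 in rps22a (4662v), and 0.05 and 0.12 in rpl7a. The mRNA level of the subunits, as the median of their log2 differences, was 0.38 in rpl7a, 0.30 in rpl40a, 0.26 in rpl26a rpl26b and in rpl24a, 0.24 in rpl40b, 0.19 in rpl26b and 0.17 in rpl24b. It was -0.24 in rpl41a and -0.27 in rpl41b. The 3 RPL heterozygotes, the rpl38 strain and the rpl26a strain lay between -0.08 and 0.00. In RPS strains it ran from -0.28 in rps25b to 0.11 in rps28b, and in wild type it was 0.01 and 0.00. The 2 strains labelled rps22a differed, at -0.23 (4662v, which went against its label) and 0.04 (4659).

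The core and regulatory particles went together across strains. Their median log2 differences correlated at a Pearson r of 0.97 over the 25 strains in both assays; each pair of values comes from 1 library and shares its total. In mRNA the core deviated further than the regulatory particle in strains at the high end: core and regulatory values were 0.43 and 0.35 in rpl7a, 0.37 and 0.25 in rpl40a, and 0.36 and 0.20 in rpl24a. At the low end the core also lay further out in rpl41b (-0.29 and -0.25), rpl41a (-0.27 and -0.21) and rps22a (4662v, -0.27 and -0.19). In rps25b it did not (-0.25 and -0.29). The difference of core minus regulatory in mRNA was -0.08, -0.02 and 0.04 (lowest, median, highest) in RPS strains, -0.07, 0.07 and 0.17 in RPL strains, and 0.01 and -0.02 in wild type. In footprints it was -0.06, 0.01 and 0.11 in RPS strains, -0.13, -0.01 and 0.18 in RPL strains, and 0.03 and 0.02 in wild type. The class ranges overlapped in both assays. Between RPS and RPL strains the mRNA fold change was below 0 for 14 of 14 core genes, with a median of -0.20, and for 17 of 18 regulatory genes, with a median of -0.13. In footprints the medians were -0.16 and -0.15, and the difference between the particles was not tested.

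**Figure D4:**
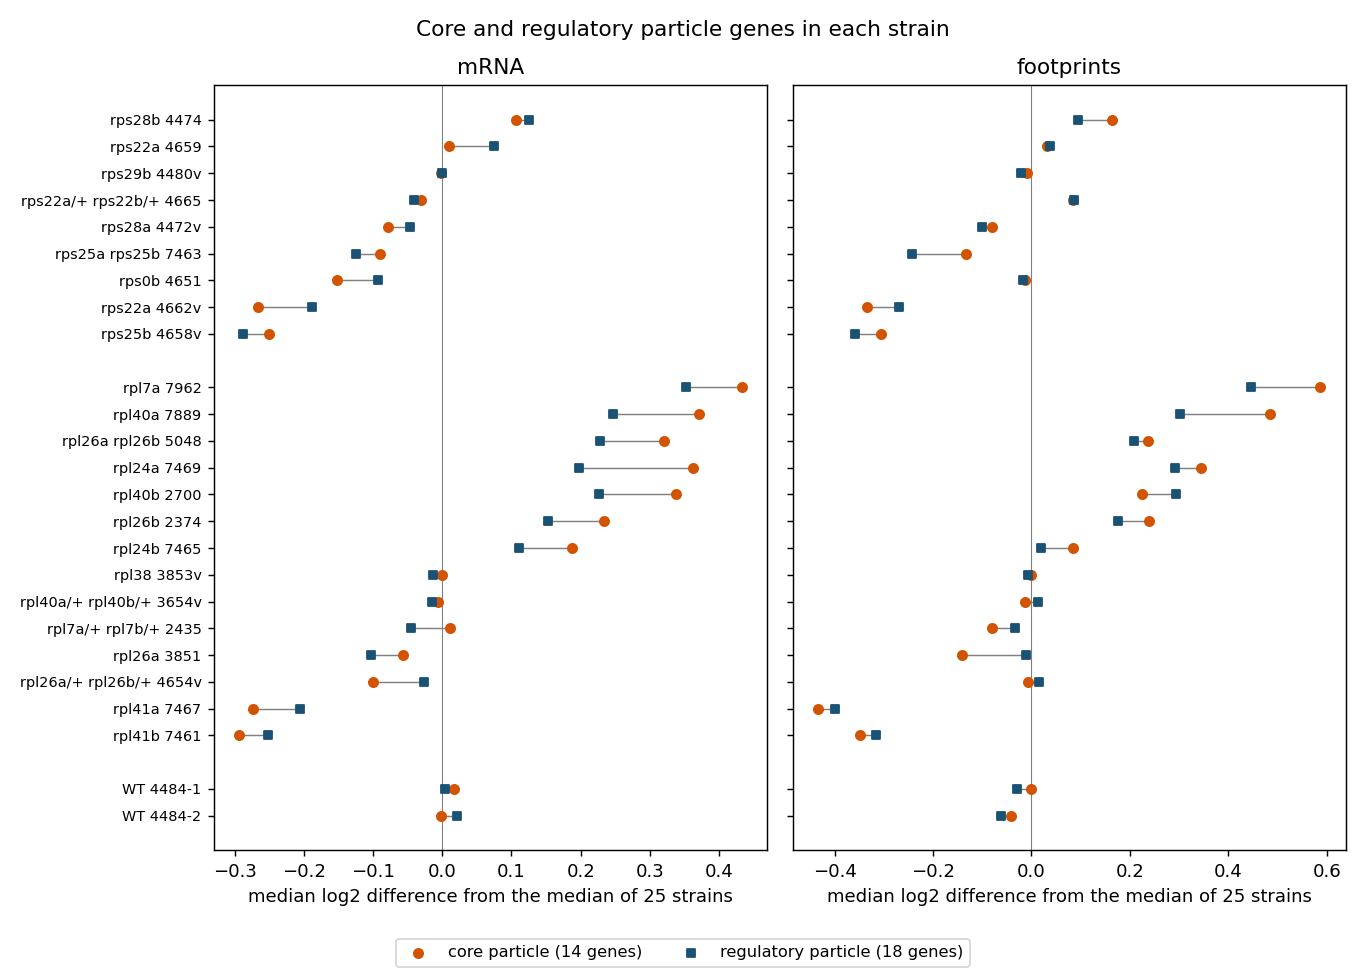
Median log2 difference of 14 core particle genes (circles) and 18 regulatory particle genes (squares) from the median of 25 strains, by strain, in mRNA and footprints. The strain rpl7a is highest at 0.43 (core, mRNA) and 0.59 (core, footprints), and rpl41a and rpl41b lie at the low end with rps25b and rps22a 4662v.

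The Cdc48 group was high and low in some of the same strains, with a median log2 difference in mRNA of 0.48 in rpl7a, -0.45 in rps25b and -0.27 in rpl41b. In footprints the values were 0.52, -0.37 and -0.29 in the same strains.

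The relation of the subunits to RPN4 was taken in 2 ways. As a description, the median log2 difference of the 32 subunits went with that of RPN4 over the 25 strains at a Pearson r of 0.72 (Spearman 0.70) in mRNA and 0.61 (Spearman 0.64) in footprints. Without the 2 strains farthest from the RPN4 median, r was 0.72 and 0.68. Within the 9 RPS strains r was 0.33 in mRNA and 0.16 in footprints, and within the 14 RPL strains 0.84 in both. Without the 2 farthest strains of each class, r in RPS strains was -0.16 in mRNA and 0.28 in footprints, and in RPL strains 0.79 in both. These values share a library and its read total, so a strain's RPN4 level was also taken from the other assay. Then r over the 25 strains was 0.57 for mRNA and 0.61 for footprints, within RPL strains 0.78 and 0.77, and within RPS strains 0.10 in both.

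**Figure D5:**
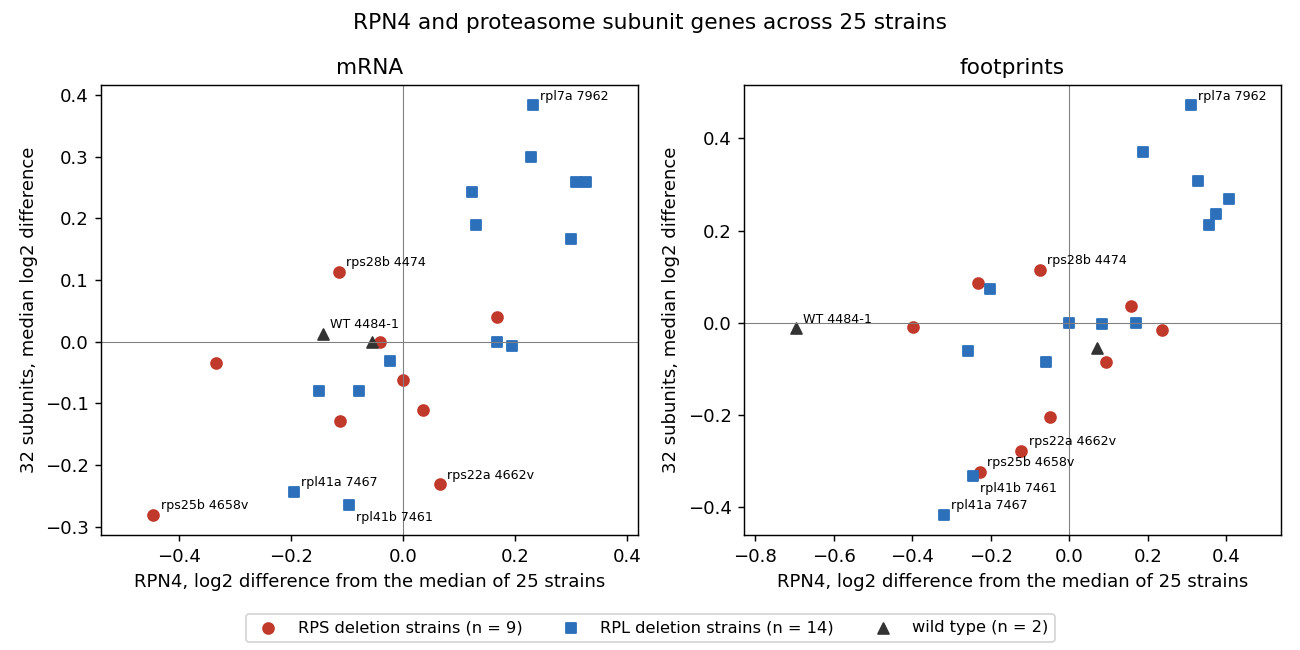
RPN4 level (horizontal) and median level of the 32 subunits (vertical) in each of 25 strains, both as log2 differences from the median of the strains, in mRNA and footprints. RPL strains (squares) run from rpl41a and rpl41b at the lower left to rpl7a at the top, with r of 0.84 in both assays, and for RPS strains (circles) r is 0.33 and 0.16.

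Second, each gene was regressed on the RPN4 level of its library with the class as a covariate, in a limma fit over all genes. A slope of 1 means that a doubling of RPN4 went with a doubling of the gene. All 39 other genes had positive slopes in both assays, although the footprint slope of PRE5 was below 0 under median-of-ratios and TMM scaling. The all-gene median slope was above 0 too, and the share of all genes with a positive slope is not given here. In mRNA 8 of 39 passed the test, where 1.65% of all genes had a positive call, and 38 had an unadjusted p under 0.05. The median slope was 0.65, against 0.17 over all genes. The 8 were PRE8, PRE7, RPT3, RPN3, RPN8, UMP1, NPL4 and SHP1. In footprints 22 of 39 passed, where 21.2% of all genes had a positive call, with a median slope of 0.49, against 0.24 over all genes.

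These calls depended on how libraries were scaled. Under median-of-ratios, TMM or quantile scaling, no gene of the 39 passed in either assay. The all-gene median slope then lay between -0.01 and 0.01 in mRNA and between -0.04 and 0.03 in footprints, against 0.17 and 0.24 under total scaling. These scalings align the typical gene of the libraries, so an all-gene median near 0 follows from them. The median slope of the 39 genes stayed at 0.55 to 0.60 in mRNA, where 27 to 28 had an unadjusted p under 0.05, and was 0.19 to 0.48 in footprints, where 5 to 18 did. With the RPN4 level of the other assay no gene passed either, at median slopes of 0.40 and 0.73, and 35 and 31 had an unadjusted p under 0.05. For these unadjusted counts, and for the mRNA count under total scaling, the share of all genes at the same p is not given here. Single strains also moved the counts. In mRNA 1 gene passed without rpl41a, 2 without rps25b or rpl26a/+ rpl26b/+, 3 without rpl41b, rpl38, rpl26a, rpl24b, rpl40a, rpl24a, rpl7a, rps29b or the wild-type sample numbered 2, 4 without rpl26b, rpl26a rpl26b, rps28a or the wild-type sample numbered 1, 5 without rpl7a/+ rpl7b/+, 15 without rps25a rps25b and 22 without rps22a (4662v). Without the 3 strains that went against their labels 19 passed, and without the 5 strains 21 did. In footprints 9 passed without rpl41a, 12 without rpl41b, 13 without rpl7a, 14 without rpl40b or rpl24a and 33 without either wild-type sample. With 1 mean value per family of deleted genes 2 passed in mRNA and 0 in footprints, and with no class term 31 passed in mRNA. The shares of all genes called in these changed fits are not given here, so the counts cannot be set against a background.

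By role, the steepest mRNA slopes were those of UFD1 (1.03 ± 0.30), PRE5 (1.00 ± 0.34), UMP1 (0.96 ± 0.24), PRE7 (0.95 ± 0.24) and PRE3 (0.95 ± 0.30), and among the regulatory particle RPN12 (0.83 ± 0.22) and RPT3 (0.79 ± 0.16). The shallowest were RPT5 (0.34 ± 0.12), RPN1 (0.46 ± 0.14) and RPN13 (0.48 ± 0.34) in the base, RPN11 (0.49 ± 0.22) in the lid, and PRE10 (0.59 ± 0.20) and PUP3 (0.61 ± 0.26) in the core. Of the core genes 2 of 14 passed and of the regulatory genes 3 of 18, with median slopes of 0.70 and 0.57. In footprints ECM29 (0.99 ± 0.21), BLM10 (0.82 ± 0.20), RPN2 (0.75 ± 0.14) and NPL4 (0.72 ± 0.15) had the steepest slopes, and PRE5 (0.18 ± 0.13) and RPN11 (0.23 ± 0.17) the shallowest. There 10 of 14 core genes and 9 of 18 regulatory genes passed, with medians of 0.58 and 0.45.

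Slopes within each class were computed after the data were seen. Within RPL strains 28 of 39 genes passed in mRNA, where 4.66% of all genes had a positive call, and 34 of 39 in footprints, where 27.1% had one. Median slopes were 1.015 and 0.78, against all-gene medians of 0.22 and 0.35. PRE7, for example, had an RPL slope of 1.46 ± 0.29 in mRNA and 0.90 ± 0.21 in footprints. Within RPS strains none passed, where 0% of all genes did in either assay, 2 genes in mRNA and 0 in footprints had an unadjusted p under 0.05, and the medians were 0.22 and 0.15. Those unadjusted counts stood beside 9.08% and 3.62% of all genes. The RPS median in mRNA was 0.01 without rps25b, the lowest RPS strain for RPN4 mRNA, with 20 of 39 slopes above 0. It was 0.33 without the strains that went against their labels and 0.41 without the 5, with 37 of 39 above 0 and 7 genes at an unadjusted p under 0.05 each time, against 33 of 39 and 2 genes with all strains. Within RPL strains, 30 genes passed in mRNA without the strains that went against their labels, where 6.35% of all genes did, and 28 without the 5, where 6.19% did. In footprints 34 passed, where 25.9% of all genes did, and 33 passed, where 22% did. The difference between the class slopes was itself tested, and no gene of the 39 passed, where 0% of all genes did in either assay. Median differences (RPS minus RPL) were -0.74 in mRNA and -0.70 in footprints, against -0.08 and -0.25 over all genes. An unadjusted p under 0.05 was reached by 15 and 10 of the 39, and by 14.8% and 5.66% of all genes.

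Under the other scalings most calls within RPL strains were lost. Under median-of-ratios, TMM and quantile scaling, 3, 5 and 0 of 39 genes passed in mRNA, where 0.314%, 0.608% and 0.0196% of all genes did. Median slopes were then 0.94, 0.94 and 0.93, and 34, 34 and 32 of the 39 had an unadjusted p under 0.05, as did 15.7%, 16.2% and 14.5% of all genes. In footprints 2, 1 and 0 passed, where 0.118%, 0.0711% and 0% of all genes did. The footprint medians were 0.63, 0.60 and 0.94, and 25, 20 and 33 had an unadjusted p under 0.05, as did 20.4%, 19.8% and 17.5% of all genes. With the RPN4 level of the other assay 6 of 39 passed in mRNA and 24 of 39 in footprints, where 0.333% and 5.54% of all genes did. Without rpl7a, the strain with the highest subunit levels, 18 of 39 passed in mRNA and 31 of 39 in footprints, where 2.55% and 18.8% of all genes did.

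A wider list of 45 genes of the ubiquitin and proteasome pathway, none of them among the 40, was set beside them. Of these, 34 were tested in mRNA, where 2 fell in RPS strains and none rose, with a median fold change of -0.07. That count is near the share of all genes called lower, 6.74%, and the all-gene median was -0.02. The list was set with earlier results of these data known. The 2 were SEM1, a small lid subunit, and NAS6, an assembly chaperone of the base. SEM1 mRNA was 114, 134 and 188 RPKM in RPS strains, 155, 176 and 249 RPKM in RPL strains, and 154.5 and 186 RPKM in wild type, a fold change of -0.38 ± 0.10 with an adjusted p of 0.014. Of the 9 RPS strains, 8 lay below the RPL median of SEM1. NAS6 had one of -0.30 ± 0.08 with an adjusted p of 0.015. The largest change in size was that of the polyubiquitin gene UBI4, at -0.65 ± 0.23, which did not pass (adjusted p = 0.069). The largest values above 0 were CUE1 (0.20), which anchors a ubiquitin-conjugating enzyme at the endoplasmic reticulum, and UBC6 (0.15), such an enzyme, and neither passed.

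In footprints 29 of the 45 were tested, 1 fell and none rose, where 4.41% of all genes were called lower. The list median was -0.11, against -0.04 over all genes. The 1 gene was DDI1, a ubiquitin-binding shuttle factor, with 54.1, 61.8 and 65.2 RPKM in RPS strains, 56.5, 78.8 and 96.5 RPKM in RPL strains, and 69.4 and 76.8 RPKM in wild type, a fold change of -0.33 ± 0.08 with an adjusted p of 0.021. All 9 RPS strains lay below the RPL median of DDI1, and 2 RPL strains lay in the RPS range. UBI4 had -0.87 ± 0.29 in footprints (adjusted p = 0.065). SAN1 (0.14) and RSP5 (0.10), both ubiquitin ligases, had the largest values above 0 in footprints, and neither passed. In efficiency none of the 29 passed. On RPN4, 3 of 34 had a called slope in mRNA, namely UBI4 (2.20 ± 0.46), UBX4 (1.01 ± 0.23) and DDI1 (0.78 ± 0.19), where 1.65% of all genes had one, with a list median of 0.32 against 0.17 over all genes. In footprints 12 of 29 had one, where 21.2% of all genes did, with a list median of 0.35 against 0.24.

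Regulators that act on RPN4 or on the same genes showed no called difference between the classes. YAP1, a factor of the oxidative stress response, had an mRNA fold change of -0.18 (adjusted p = 0.19), HSF1, the heat shock factor, -0.06 (adjusted p = 0.58), PDR1 -0.02 (adjusted p = 0.90) and PDR3 0.12 (adjusted p = 0.38), the last 2 being factors of multidrug resistance. On the RPN4 level, the footprint slopes of HSF1 (0.68 ± 0.16), YAP1 (0.63 ± 0.17) and PDR1 (0.38 ± 0.14) passed the test, and no mRNA slope of the 4 did. In footprints 21.2% of all genes had a positive call, and PDR3 was not tested there. Whether these calls held under the other scalings is not given here.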

How the data were processed

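Footprint and mRNA tables were used, and both call their values RPKM per the file headers. As deposited by the authors, however, the values are a length-weighted signal, in which each library's reads had been scaled by a step that rises with coding length minus 60 nt. Whole reads were recovered from those steps (tolerance 0.03 reads). Annotated R64 lengths served for 5089 of 6679 open reading frames; for 939, PRE3, RPN8 and SHP1 among them, the length came from the values themselves (at least 20 reads), so their whole reads are no check. With annotated lengths 87.6% of 5812 genes were whole in every library. Left out were 351 at 0, 300 with no length (0.00058% of mRNA and 0.000137% of footprint signal) and 1 unnamed line of totals per table. CASAVA, bcl2fastq 2.17 and Bowtie2 are named in the submitters' processing notes. For the genome build, strand use and treatment of reads matching several genes, details were not given in the sources used here.

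RPKM was recomputed from recovered reads, a departure from the planned use of deposited values. Genes averaging 10 RPKM or more were tested on log2(RPKM + 1), which understates changes of low genes, with limma 3.58.1 in R 4.3.3 (variance trend, 3 classes in 1 fit, two-sided, Benjamini-Hochberg adjusted p under 0.05 over all genes tested). Efficiency is footprint minus mRNA log2 level, with strain as the block. Strain numbers shared by both assays supply this pairing. Over 4199 genes, a strain's own libraries deviated together at r = 0.04 in rpl26a/+ rpl26b/+ and at 0.293 to 0.837 in the others. The strain rpl26a/+ rpl26b/+ was kept in the main efficiency fit. Of 25 footprint libraries, 22 matched their own mRNA library best. Fits were tested on simulated data. Read totals (report) limit precision; of the members, UFD1 had the fewest mRNA reads, 36 to 209 per library. Genes, lists and tests were chosen with earlier results of these data known. Named by rule were RPN4, members past a class test, extremes of level and slope per role, and, from the pathway list, calls and the 2 largest changes each way; other named genes, among them neighbours, were chosen after their values were seen. Alternatives covered scaling, added constant, minimum level, pairing and left-out strains. No sequence is shown and the planned search for the Rpn4-bound element was not run, because no sequence was at hand.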

Additional observations from a re-analysis of the deposited data

How the results depend on the processing

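Outside the removal of single strains, 253 recounts of the genes past a test stayed within 1.5 times the reported count and 29 did not. With single strains removed, 495 did and 55 did not. The recounts include reported counts of 0, which stay the same wherever no gene is called. The split is therefore no measure of how steady the calls were. The cause of the moved recounts was not tested, except that some settings use fewer strains. The 4 genes lower in RPS mRNA became 2 without the 3 strains whose libraries went against their labels, 1 without the 5 strains with a targeted gene not below the range (added after seeing the data) and 0 with 1 mean value per deleted gene family; the 0 lower in footprints became 2 without those 3 strains and 1 without the 5. The 2 genes higher in efficiency became 1 with a minimum of 1 RPKM, with no minimum, under median-of-ratios and TMM scaling, without rps25a rps25b and with the variance trend along the efficiency (added after seeing the data). They became 0 with family means, and 0 with no replicate block, that is without pairing the assays by strain; the pairing changed no other count. The 8 positive mRNA slopes on RPN4 became 5 with a minimum of 1 RPKM, 4 with no minimum, 0 under median-of-ratios, TMM and quantile scaling and with RPN4 of the other assay, 2 with family means, 15 without rps25a rps25b, 19 without the 3 strains, 21 without the 5 and 31 with no class term. The 22 positive footprint slopes became 0 under the 3 other scalings, with family means and with RPN4 of the other assay. The footprint slope of PRE5 turned to -0.065 under median-of-ratios and -0.088 under TMM scaling. Leaving out 1 strain gave 1 to 9 genes lower in mRNA (1 without rps0b or rps22a 4662v, 9 without rpl41a or rpl41b), 0 to 3 lower in footprints, 1 to 2 higher in efficiency, 1 to 22 positive mRNA slopes and 9 to 33 positive footprint slopes (9 without rpl41a). The shares of all genes called in these recounts are not given here. The planned fit with edgeR was not run, since the deposited values were not counts; voom on the recovered reads took its place. RPS strains had the lowest median mRNA depth of the classes; what part depth had in the calls was not tested. Class contrasts rest on strains of different genotype.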
